A study of Mus musculus with 16 samples.

Results

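Matrix metalloproteinases (MMP), the ADAMTS proteinases with their non-catalytic ADAMTS-like relatives, and the tissue inhibitors of metalloproteinases (TIMP) were examined in mouse lung after bleomycin, with and without an oligonucleotide that blocks a microRNA site in the caveolin 1 (Cav1) transcript. The genes were those on the array whose symbol starts with Mmp, Adamts, Adamtsl or Timp and continues with a number, with a last letter allowed. They were 51 of the 20863 named genes on the array, and comprised 23 MMP, 19 ADAMTS, 5 ADAMTS-like and 4 TIMP genes. They were covered by 88 spots, with several spots for 20 of them, and each gene was read from its brightest spot on average. Of the 51, 50 passed the filter on dim spots, and the exception was Mmp20, a tooth enamel protease.

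RNA of whole lung from C57BL/6 mice aged 9 to 12 weeks was hybridised to 16 one-colour Agilent arrays. The mice received a target site blocker (TSB) into the trachea 4 and 2 days before, and again 4 days after, bleomycin (1 unit/kg) or phosphate-buffered saline (PBS). The blocker was either the CAV1 TSB at 5 mg/kg or a Control TSB, whose dose is not given in the sources used here, so every mouse carried an oligonucleotide. The groups held 2 arrays for PBS with Control TSB, 2 for PBS with CAV1 TSB, 6 for bleomycin with Control TSB and 6 for bleomycin with CAV1 TSB. Each array took 0.2 µg of RNA, and the RNA integrity number was 9, except for 10 in arrays 1 and 5 of bleomycin with Control TSB. The time of lung collection is not given in the sources used here. Nothing in the labels says that the samples were separate animals, so the p-values speak to the spread among the samples, which may be technical.

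MMPs are zinc proteases that cut collagens, elastin, fibronectin and many non-matrix proteins, and most are made as proenzymes that need cleavage to become active. ADAMTS enzymes are secreted relatives that cut proteoglycans or trim procollagens, ADAMTS-like proteins keep their ancillary domains and have no catalytic site, and TIMPs bind and inhibit the active enzymes. In the injured lung these families are known for matrix turnover during inflammation and for scar formation, with Timp1 and Mmp12 among the genes long linked to bleomycin injury. Bleomycin itself breaks DNA and is used to cause lung injury followed by fibrosis.

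All values are log2 signals as deposited, on which a difference of 1 is a doubling of signal, and each array had a median of 6.51 to 6.52 over its spots. Calls were made with limma, two-sided, at a p under 0.05 after Benjamini-Hochberg adjustment across the 20304 genes tested. Markers of alveolar type 2 cells (8 of 8 genes above the array median) and of alveolar type 1 cells (6 of 6) were high, the type 2 list at a mean of 15.08 to 15.54 in every array. The libraries differed in ways that cross the groups. Skeletal muscle markers (12 genes) had a mean of 10.43 to 12.92 in 11 arrays and of 7.48 to 8.71 in 5, which were both PBS CAV1 TSB arrays, arrays 2 and 6 of bleomycin with Control TSB and array 3 of bleomycin with CAV1 TSB. Markers of stratified squamous epithelium (12 genes) had a mean of 10.22 to 11.11 in the same 11 arrays and of 7.19 to 7.48 in the same 5. Arrays 2 of PBS with Control TSB and 6 of bleomycin with CAV1 TSB were the 2 highest of 16 for 6 of the 50 genes tested, Adamts10, Adamts13, Adamtsl5, Mmp15, Mmp17 and Mmp23. They were the 2 lowest for 4, Adamtsl1, Mmp8, Mmp27 and Timp3. The share of all genes so placed was not counted. Over all genes tested, the deviations of these 2 arrays from their group means had a correlation of 0.69, so their likeness was not limited to the members. PBS Control TSB array 2 had the lowest median correlation with the other arrays (0.979). Array 6 of bleomycin with CAV1 TSB (0.9844) lay above PBS CAV1 TSB array 1 (0.9838). The part of these 2 arrays in the results was not tested beyond the values without them. Cav1 itself had a mean of 10.94 after bleomycin with CAV1 TSB and of 10.70 with Control TSB, a difference of 0.24 that was not called (adjusted p = 0.642). In whole-lung RNA, fewer cells of a type and less RNA per cell cannot be told apart.

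Of the 51 genes, 28 lay above the array median in all 16 arrays and 13 below it in all 16, and 10 were above it in some arrays. The genes below the median everywhere have signals close to the floor of the array, where small changes are compressed. The SD within groups ranged from 0.0914 to 0.646 with a median of 0.200. The 6 genes with the widest range over the arrays were Mmp12, Timp1, Adamts4, Adamts17, Mmp2 and Mmp14. The 2 PBS groups were low in the first 4 of these, and so was array 1 of bleomycin with CAV1 TSB.

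**Figure D1:**
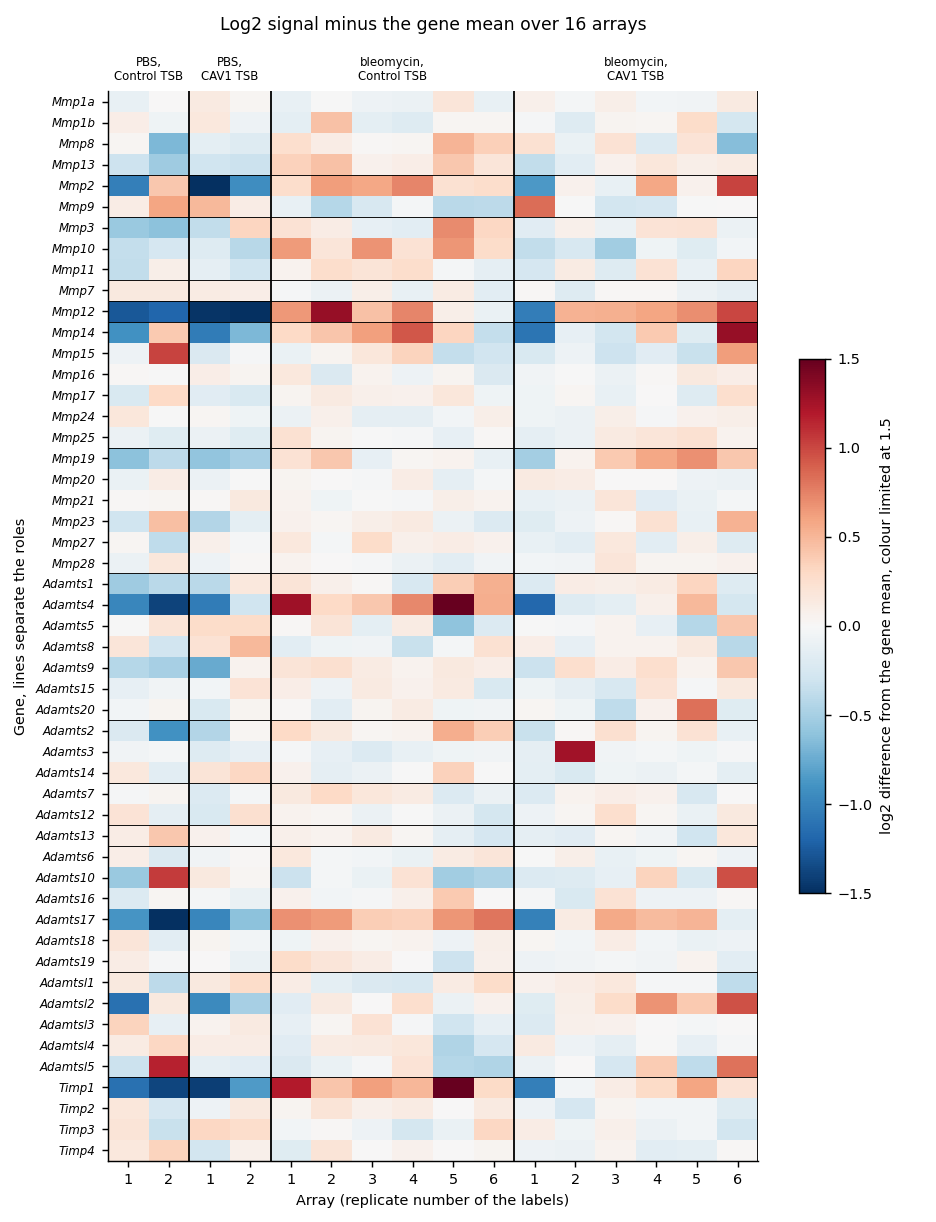
Log2 signal of the 51 genes in each of the 16 arrays, shown as the difference from the gene's own mean over the arrays, with red above and blue below that mean and colours limited at 1.5. Rows are genes in the order of their roles and columns are arrays by group. Mmp12, Timp1, Adamts4 and Adamts17 are blue in the 4 PBS arrays and in array 1 of bleomycin with CAV1 TSB, and red or pale in most other bleomycin arrays.

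Several MMP genes lie in 1 cluster on chromosome 9, and 10 of them have start windows in the RefSeq table (GRCm38.p6), each 250 bases before to 50 bases after a start. The bases before the start are printed for members of the cluster that were called or are described later, with Timp1 for contrast, to show the motifs that most of the cluster shares. For Mmp12 and Mmp7 only a window that holds TGANTCA is printed, and any other window of theirs is not shown. Capitals mark TGANTCA, the letters of an AP-1 type site, which read the same on both strands, and TATAAA, the letters of a TATA box, searched on both strands. Each line gives 150 bases before the start, 5′ to 3′ on the plus strand, and the coordinates follow in the next paragraph.
Mmp13: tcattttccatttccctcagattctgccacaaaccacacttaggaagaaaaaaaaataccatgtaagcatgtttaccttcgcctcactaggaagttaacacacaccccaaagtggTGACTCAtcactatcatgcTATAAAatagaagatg
Mmp12: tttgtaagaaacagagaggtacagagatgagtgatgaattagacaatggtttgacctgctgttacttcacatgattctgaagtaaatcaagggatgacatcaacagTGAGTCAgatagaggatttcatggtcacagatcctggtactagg
Mmp3: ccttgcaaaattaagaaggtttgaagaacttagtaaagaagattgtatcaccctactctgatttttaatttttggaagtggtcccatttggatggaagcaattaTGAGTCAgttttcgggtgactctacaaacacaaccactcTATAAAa
Mmp10: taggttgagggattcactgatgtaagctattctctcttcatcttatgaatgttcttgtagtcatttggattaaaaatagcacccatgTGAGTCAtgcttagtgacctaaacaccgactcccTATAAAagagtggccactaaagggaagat
Mmp8: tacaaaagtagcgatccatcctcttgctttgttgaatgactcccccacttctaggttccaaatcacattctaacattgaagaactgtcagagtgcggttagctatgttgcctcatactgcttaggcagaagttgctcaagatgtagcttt
Mmp7: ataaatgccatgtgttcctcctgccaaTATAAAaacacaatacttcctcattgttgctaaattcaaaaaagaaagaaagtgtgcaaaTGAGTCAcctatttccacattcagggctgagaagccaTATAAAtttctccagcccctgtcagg
Timp1: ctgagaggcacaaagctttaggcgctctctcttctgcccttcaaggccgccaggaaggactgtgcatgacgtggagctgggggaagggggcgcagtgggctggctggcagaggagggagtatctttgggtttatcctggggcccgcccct

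In build GRCm38.p6 these stretches are chr9:7272364-7272513 (Mmp13), chr9:7347224-7347373 (Mmp12), chr9:7445672-7445821 (Mmp3), chr9:7502192-7502341 (Mmp10), chr9:7558279-7558428 (Mmp8), chr9:7691940-7692089 (Mmp7) and chrX:20870016-20870165 (Timp1), all upstream of the gene on the plus strand. TGANTCA was in 7.81% of all 32851 windows of that table, and in 8 of the 12 windows of the chromosome 9 Mmp genes, spread over 8 of the 10 genes. It was in 0 of the 27 windows of the other members. TATAAA was in 13.6% of all windows, in 9 of the 12 windows of the cluster and in 3 of the 27 others. Windows were found for 36 of the 51 genes, and Adamts4, Adamts5, Mmp2, Mmp9 and Mmp19 were among the 15 without one. Counted from the start of the window that holds it, TGANTCA stood 35 bases before the start in Mmp13 (position -35). It was at -44 in Mmp12, at -46 in Mmp3 and at -63 in Mmp10. It was also in Mmp1a, Mmp1b, Mmp7 and Mmp20, whose signals lay below the array median in every array, so the letters were shared by cluster genes that rose with bleomycin and by genes that were not called. The match of TATAAA in Mmp8 is on the other strand at -3 and runs past the start, so it is not in the stretch printed. A match describes letters in this window and shows no binding.

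**Figure D2:**
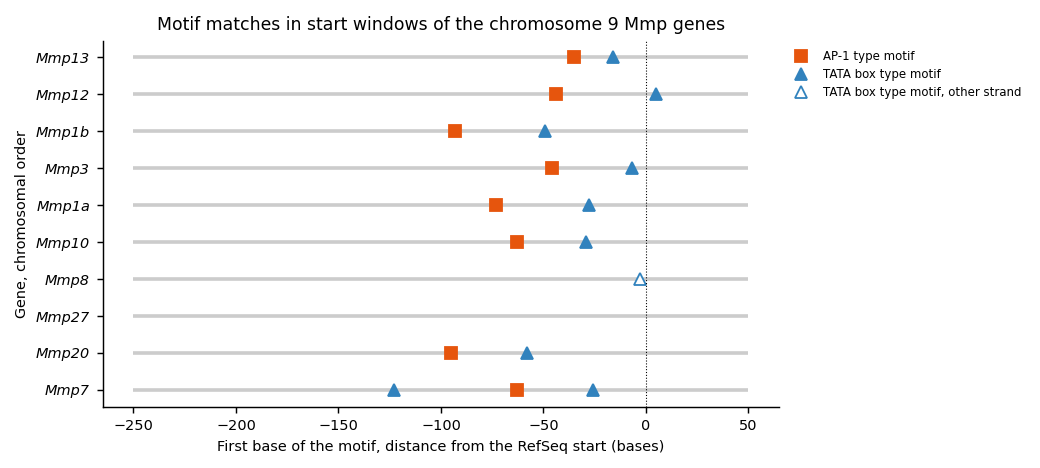
Positions of TGANTCA (squares, AP-1 type motif) and TATAAA (triangles, TATA box type motif, filled where on the gene strand) in the start windows of the 10 chromosome 9 Mmp genes, in bases from the RefSeq start, with grey lines for the windows. The open triangle is TATAAA on the other strand. Matches from all windows of a gene share its line. Squares lie between -95 and -35 in 8 of the 10 genes, the window of Mmp8 holds only the open triangle at -3, and that of Mmp27 holds neither motif.

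Bleomycin was first compared with PBS under the Control TSB, which shows how the injured lung differed with no block of the Cav1 site. Here 7 of the 50 genes rose and 0 fell, in a comparison where 1.96% of all genes rose and 0.448% fell. The rises were in Timp1, the inhibitor induced in wound repair, in the proteoglycan-cleaving Adamts4, in Adamts17, in the macrophage elastase Mmp12, in the procollagen N-proteinase Adamts2, in stromelysin 2 (Mmp10) and in collagenase 3 (Mmp13). Rises in signal were about 4-fold for Timp1 (4.06) and Adamts4 (4.03), 3.47-fold for Adamts17, 3.36-fold for Mmp12 and 1.74-fold for Adamts2. No fold is given for Mmp10 and Mmp13, whose PBS signals lay below the array median, and that of Mmp12 is a ratio to a PBS signal close to that median. The median over the 50 genes was 0.04, against 0.03 over all genes tested. Arrays of the 2 groups did not overlap for 11 genes that were higher after bleomycin, where 8.55% of all genes were so placed, and for 2 that were lower, where the share of all genes was 4.04%.

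Among the inhibitors, Timp1 was the only one of 4 called. Its signal was 10.30 and 10.04 in the PBS arrays, and 12.62, 11.84, 12.04, 11.93, 13.04 and 11.71 in bleomycin arrays 1 to 6. Every bleomycin array was above both PBS arrays, and the highest values were in arrays 5 and 1, the libraries of integrity number 10. The group means were 10.17 ± 0.19 (SD, n = 2) and 12.20 ± 0.52 (SD, n = 6), a difference of 2.02 (SE 0.37, adjusted p = 0.0186). Timp2, which also helps to activate Mmp2 at the cell surface, was at 15.86 and 15.44 after PBS and from 15.68 to 15.88 with a median of 15.78 after bleomycin (0.13, adjusted p = 0.589). Timp3, the inhibitor bound to the matrix, differed by 0.04 (adjusted p = 0.920), and Timp4 by -0.23 (0.319). The groups overlapped for all 3, and without PBS array 2 the differences of Timp2 and Timp3 were -0.08 and -0.22.

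The secreted MMPs of the chromosome 9 cluster included the 3 MMP calls. Mmp12 was at 6.46 and 6.53 after PBS, close to the array median, and at 8.37, 9.03, 8.17, 8.46, 7.81 and 7.63 after bleomycin. All 6 arrays were above the PBS arrays by at least 1 log2 unit, a difference of 1.75 (SE 0.42, adjusted p = 0.0412). A list of 11 monocyte-derived macrophage markers, cells that make this elastase, had 5 genes called higher and none lower in the same comparison, and its mean was 10.68 to 11.02 in the PBS arrays and 11.99 to 12.29 in the bleomycin arrays. The 8 resident alveolar macrophage markers went the other way, with 0 called higher and 2 lower. Their mean was 12.64 to 12.72 in the PBS arrays and 11.66 to 11.96 in the bleomycin arrays. The part of either list in the Mmp12 result was not tested. Mmp13, which cuts fibrillar collagens, was at 6.25 and 6.03 after PBS and between 6.63 and 7.00, with a median of 6.82, after bleomycin (0.67, SE 0.14, adjusted p = 0.0253). Mmp10, which activates other MMPs, was at 5.89 and 5.99 after PBS and at 6.88, 6.42, 6.92, 6.46, 6.90 and 6.51 after bleomycin (0.74, SE 0.16, adjusted p = 0.0260). Both genes were separated between groups, with PBS signals between the 25th percentile of the array (5.97 to 5.99) and its median for Mmp13, and around that percentile for Mmp10, where differences in signal are compressed.

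Other MMPs did not pass. Mmp3 (stromelysin 1) was at 10.08 and 10.02 after PBS and from 10.48 to 11.35, median 10.80, after bleomycin (0.76, adjusted p = 0.0689). Its 6 bleomycin arrays all lay above the PBS arrays. Mmp8, the neutrophil collagenase, differed by 0.54 (adjusted p = 0.242) with overlapping groups. Mmp9 (gelatinase B), stored in neutrophil granules, was at 7.50 and 7.98 after PBS and from 6.96 to 7.36 after bleomycin, a difference of -0.62 (adjusted p = 0.201), and its 9 other spots gave -0.52 to -0.34. Neutrophil markers, 11 genes tested with 0 called higher and 1 called lower, had a mean of 11.46 to 11.60 in the PBS arrays and of 10.79 to 11.32 in the bleomycin arrays. Whether they bear on Mmp9 was not tested.

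Gelatinase A (Mmp2) and its activator, membrane-type Mmp14, varied widely among the PBS arrays. Mmp2 was at 10.75 in array 1 and 12.18 in array 2 of PBS with Control TSB, and from 12.00 to 12.51 with a median of 12.20 after bleomycin (0.76, adjusted p = 0.390). PBS array 2 lay inside the bleomycin range, and it is also an array named above for extreme values in several members. Mmp14 was at 8.42 and 9.73 after PBS and from 8.98 to 10.26 after bleomycin (0.63, adjusted p = 0.542), and the difference was -0.02 without PBS array 1. None of the 6 membrane-type MMPs was called, with differences of -0.51 to 0.63.

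Of the 19 ADAMTS genes 3 rose, and of the 5 ADAMTS-like genes none was called. Adamts4, one of the aggrecan and versican cleaving enzymes, was at 7.72 and 7.30 after PBS and at 9.97, 8.99, 9.10, 9.42, 10.40 and 9.24 after bleomycin (2.01, SE 0.39, adjusted p = 0.0208). The groups were separated by more than 1 log2 unit, and arrays 5 and 1 were again highest. Array 5 or 1 was the highest of these 6 for 3 of the 11 genes called in the mean of both bleomycin effects, given below. Adamts17, whose loss is known to cause a short stature and lens disorder, was at 8.03 and 7.37 after PBS and in a narrow band of 9.26 to 9.72, median 9.57, after bleomycin (1.80, SE 0.32, adjusted p = 0.0186). Adamts2, which removes the N-terminal propeptide of fibrillar procollagens, was at 12.72 and 12.04 after PBS and from 12.97 to 13.49, median 13.17, after bleomycin (0.80, SE 0.19, adjusted p = 0.0438). Adamts9 (0.61, adjusted p = 0.0982) and Adamts1 (0.63, 0.0990), both proteoglycan-cleaving, had separated groups and did not pass.

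Other spots of the called genes gave smaller differences. The second spot was 1.00 for Adamts4, 0.29 for Mmp12, 0.25 for Adamts17 and -0.02 for Adamts2, at mean signals of 6.83, 5.98, 6.72 and 7.12, all dimmer than the spot used. Timp1, Mmp10 and Mmp13 had 1 spot each.

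All 7 calls rested on PBS Control TSB array 2: without it 0 of the members and 0.448% of all genes were called, with Timp1 at 1.89 (adjusted p = 0.148) and Adamts4 at 1.81 (0.196). Without PBS Control TSB array 1 they numbered 12, where calls over all genes rose to 20.1%. Without bleomycin Control TSB array 1 they numbered 3 (0.729% of all genes), with Mmp13 and Mmp10 among those lost. The count was 0 without both libraries of integrity number 10 (0.0739% of all genes), and 0 in the arrays high in skeletal muscle markers alone (0.0443%).

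**Figure D3:**
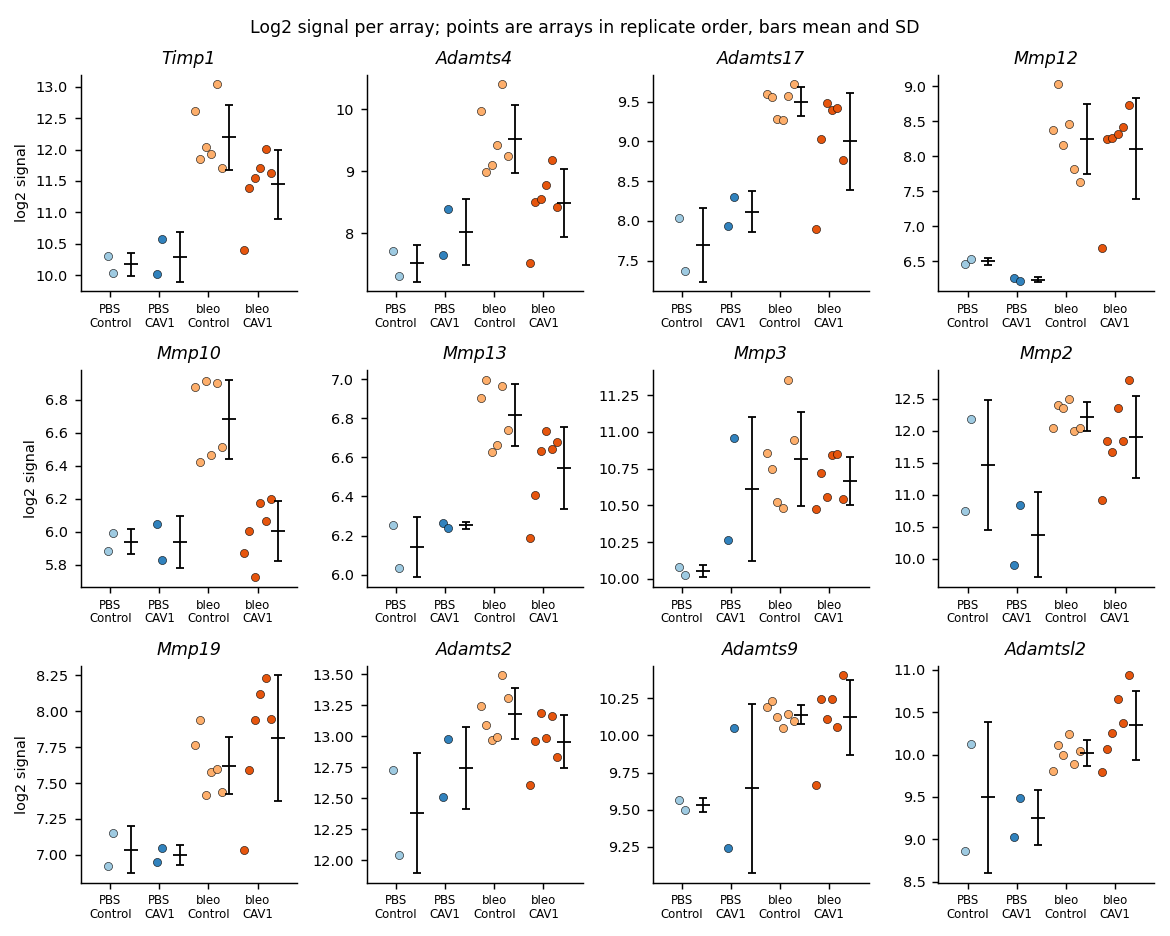
Log2 signal of selected genes in each array, with 1 point per array in replicate order within the 4 groups, and a bar for the mean and SD of each group. Timp1, Adamts4, Adamts17 and Mmp12 are higher in most bleomycin arrays than in the 4 PBS arrays, and array 1 of bleomycin with CAV1 TSB lies near the PBS arrays. Mmp10 lies at 6.42 to 6.92 in bleomycin with Control TSB and at 5.72 to 6.20 with CAV1 TSB, with no overlap.

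The same comparison under the CAV1 TSB asks how bleomycin acted where the Cav1 site was blocked. None of the 50 genes was called by limma, in a comparison where 0.345% of all genes rose and 0.172% fell. At an unadjusted p under 0.05, 7 members were higher and 3 lower, against 7.15% and 7.67% of all genes. Groups did not overlap for 3 members higher after bleomycin (8.38% of all genes) and for 4 lower (12.3%). With the CAV1 TSB the median over the members was 0.04, and -0.01 over all genes. Markers of other tissues moved with this comparison, since both PBS CAV1 TSB arrays were low in them. Of 12 skeletal muscle markers 9 had an unadjusted p under 0.05 and 0 were called, with a median difference of 3.12, and of 12 squamous markers 9 had such a p and 1 was called higher, with a median of 2.74. Their part in the members' differences was not tested.

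Mmp12 had the largest difference of the 50 genes in this comparison. It was at 6.26 and 6.21 after PBS and at 6.69, 8.25, 8.26, 8.31, 8.42 and 8.73 in bleomycin arrays 1 to 6 (1.87, SE 0.42, adjusted p = 0.0557). Array 1 lay just above the PBS arrays and the other 5 lay far above them. The monocyte-derived macrophage marker list ranged from 10.30 to 10.31 in these PBS arrays and from 10.40 to 11.98 in the bleomycin arrays, with 1 of 11 genes called. At an unadjusted p under 0.05 were 8 of the 11, against 14.8% of all genes. Of 8 resident alveolar macrophage markers 0 were called and 3 had such a p, with a median difference of -0.42. Mmp2 was at 9.91 and 10.84 after PBS and from 10.92 to 12.80, median 11.84, after bleomycin (1.53, adjusted p = 0.0990). Mmp19, a secreted MMP, differed by 0.81 (adjusted p = 0.121), from 6.95 and 7.05 to a median of 7.94. Adamtsl2, a microfibril-associated regulator of TGF-beta availability, was at 9.03 and 9.48 after PBS and from 9.80 to 10.94 after bleomycin (1.09, adjusted p = 0.0977). For Mmp2 and Adamtsl2 the groups were separated, with array 6, named above for extreme values in several members, highest in both.

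Timp1 and the ADAMTS genes that rose under the Control TSB had smaller differences here. Timp1 was at 10.02 and 10.58 after PBS and at 10.41, 11.39, 11.54, 11.71, 12.02 and 11.63 after bleomycin (1.15, SE 0.37, adjusted p = 0.154). Array 1 lay inside the PBS range. Adamts17 differed by 0.88 (adjusted p = 0.209), with bleomycin array 1 at 7.90 and arrays 2 to 6 from 8.76 to 9.48. Adamts4, at 7.65 and 8.40 after PBS and from 7.51 (array 1) to 9.18 after bleomycin, differed by 0.47 (0.623). Adamts14, an N-proteinase like Adamts2, differed by -0.37 (adjusted p = 0.141), with all bleomycin arrays (9.04 to 9.23) below the PBS arrays (9.46 and 9.57). Timp3 differed by -0.33 (adjusted p = 0.303), Timp2 by -0.13 (0.645), Timp4 by 0.04 (0.910), Mmp14 by 0.86 (0.418), Mmp8 by 0.12 (0.843) and Mmp9 by -0.25 (0.668). The second spot of Timp2 gave 0.30. Mmp9 was highest in array 1 (8.23), the array in which Mmp12 was lowest.

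Without bleomycin CAV1 TSB array 1, 6 members and 3.54% of all genes were called, against 0.517% with it, and the members included Mmp12 (2.16, adjusted p = 0.000782), Mmp19 (0.97, 0.00478), Mmp2 (1.73, 0.0194) and Adamtsl2 (1.20, 0.0302). Without PBS Control TSB array 1 or 2 there were 2 calls, Mmp12 and Adamtsl2, and 1.54% of all genes were called.

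**Figure D4:**
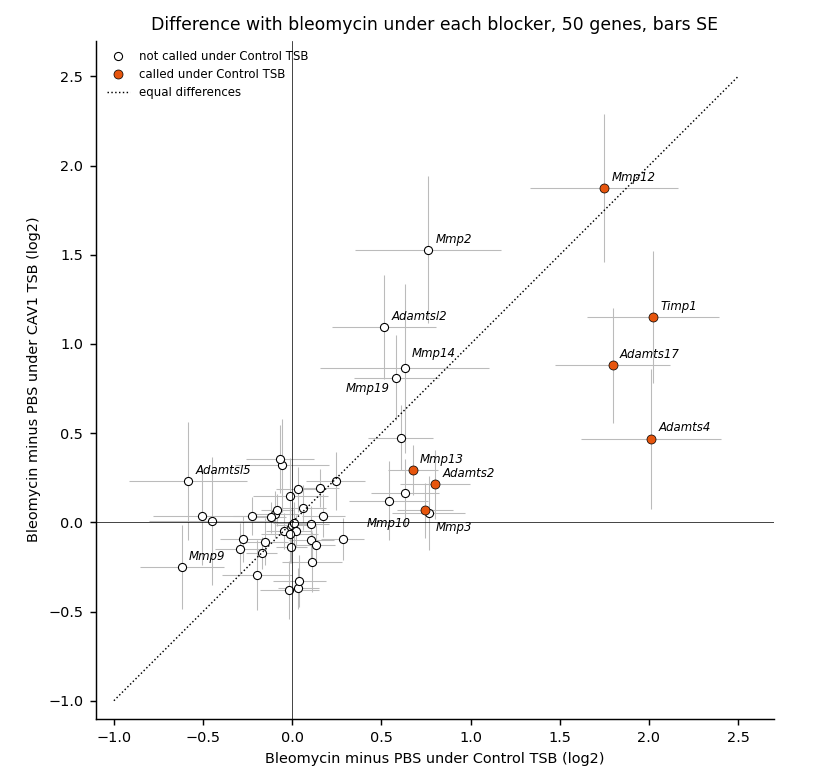
Difference between bleomycin and PBS on the log2 scale for the 50 genes, under the Control TSB (x axis) and under the CAV1 TSB (y axis), with bars for the SE and filled points for genes called under the Control TSB. Mmp12 lies near the line of equal differences, Timp1, Adamts17 and Adamts4 lie below it, and Mmp2, Adamtsl2, Mmp14 and Mmp19 lie above it.

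Taking the mean of both bleomycin effects uses all 16 arrays. In it 11 of the 50 genes rose and 0 fell, where 4.25% of all genes rose and 1.68% fell. Over all genes this was 862 higher and 342 lower, and 682 and 484 after centring each array on its median; the members then numbered 10 higher, without Mmp10. The 11 were Mmp12 (1.81, adjusted p = 0.00294), Timp1 (1.59, 0.00336), Adamts17 (1.34, 0.00367), Adamts4 (1.24, 0.0152), Mmp2 (1.14, 0.0303), Adamtsl2 (0.81, 0.0312), Mmp19 (0.70, 0.0224), Adamts9 (0.54, 0.0202), Adamts2 (0.51, 0.0414), Mmp13 (0.48, 0.00964) and Mmp10 (0.41, 0.0426). All 11 differences were above 0 under each blocker, and 7 were smaller under the CAV1 TSB, on the spots used. In this mean the second and dimmer spot gave 0.04 for Adamts17, 0.20 for Mmp12, 0.21 for Adamts2 and 0.68 for Adamts4. That of Adamts17, at a mean signal of 6.72, gave -0.16 under the CAV1 TSB. Mmp12 was the only one of the 50 for which all 12 bleomycin arrays lay above all 4 PBS arrays, a separation that 1.04% of all genes had. Of the others, Mmp9 differed by -0.43 (adjusted p = 0.161), Mmp14 by 0.75 (0.259), Mmp8 by 0.33 (0.290), Timp3 by -0.15 (0.554), Timp4 by -0.09 (0.610) and Timp2 by 0.00 (0.991).

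Array 1 of bleomycin with CAV1 TSB was the lowest of the 12 bleomycin arrays for 10 of these 11 genes, and lay at or below the highest PBS array for 10. The other 5 arrays of its group lay above all 4 PBS arrays for 7 of the 11. The 11 were called for higher signal in these same bleomycin arrays, so that last count is partly set by the choice. The shares of all genes so placed were not counted. Mmp12, Timp1 and Adamts17 stayed called whichever of the 16 arrays was left out, and the count ranged from 3, without PBS CAV1 TSB array 1 (1.90% of all genes), to 12, without bleomycin CAV1 TSB array 1 (7.84%). It was 7 without PBS Control TSB array 1 (9.47% of all genes), PBS Control TSB array 2 (5.65%) or bleomycin CAV1 TSB array 4 (4.45%), and 5 without both libraries of integrity number 10 (3.75%).

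The blockers were then compared after bleomycin, which asks whether blocking the Cav1 site altered these genes in injured lung. One gene, Mmp10, was lower with the CAV1 TSB and 0 were higher, where 0.414% of all genes fell and 1.2% rose. Mmp10 was at 6.88, 6.42, 6.92, 6.46, 6.90 and 6.51 in arrays 1 to 6 with the Control TSB and at 5.87, 6.00, 5.72, 6.17, 6.06 and 6.20 with the CAV1 TSB. The lowest Control TSB array was above the highest CAV1 TSB array, a separation in this direction that 0.832% of all genes had. The CAV1 TSB values overlapped those of the 4 PBS arrays, 5.83 to 6.05. Mmp10 fell by 0.68 (SE 0.11, 95% confidence interval -0.91 to -0.44, adjusted p = 0.00308), from 6.68 ± 0.24 (SD, n = 6) to 6.01 ± 0.18 (n = 6). It was measured by 1 spot, and its CAV1 TSB arrays all lay below the array median and around the 25th percentile of 5.97 to 5.99. At that signal differences are compressed, so the value is given as a difference in signal with no fold. Mmp10 stayed called whichever array was left out, with an adjusted p of 0.00309 to 0.0109, and in the 15 other settings tried (0.000832 to 0.0353).

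**Figure D5:**
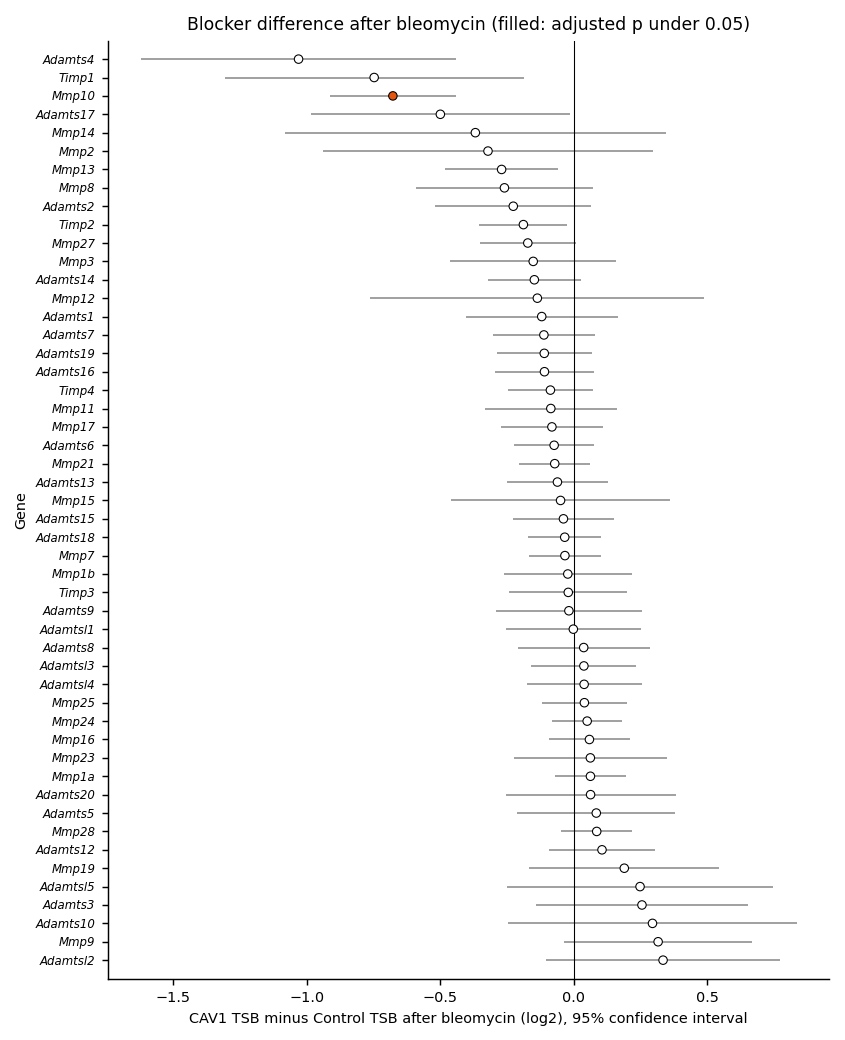
Difference between the CAV1 TSB and the Control TSB after bleomycin for the 50 genes on the log2 scale, with 95% confidence intervals, ordered by size. Mmp10 is the filled point (adjusted p under 0.05), and Adamts4 and Timp1 lie further or as far below 0 with wider intervals.

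At an unadjusted p under 0.05, 6 members were lower and 0 higher, against 4.6% and 4.48% of all genes. Besides Mmp10 these were Adamts4, Timp1, Mmp13, Timp2 and Adamts17. The second spot of Timp2, at a mean signal of 12.89, gave -0.06. The second spots of Adamts4 and Adamts17 gave -0.46 and -0.21. Adamts4 ranged from 8.99 to 10.40 with the Control TSB and from 7.51 to 9.18 with the CAV1 TSB, with medians of 9.33 and 8.53 (-1.03, interval -1.62 to -0.44, adjusted p = 0.0999). The groups overlapped in a narrow band, with 1 CAV1 TSB array above the lowest Control TSB arrays. Timp1 ranged from 11.71 to 13.04 and from 10.41 to 12.02, with medians of 11.98 and 11.59 (-0.75, interval -1.31 to -0.19, adjusted p = 0.284). Mmp13 differed by -0.27 (adjusted p = 0.321), Timp2 by -0.19 (0.439) and Adamts17 by -0.50 (0.529), and neither these 3 nor Adamts4 and Timp1 passed in any of the 31 alternatives run for each, where the lowest adjusted p was 0.0542, for Adamts4. The bleomycin arrays with the Control TSB enter both this comparison and that with PBS, so low values here and high values there share arrays.

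Mmp12 did not differ detectably between the blockers after bleomycin (-0.14, interval -0.76 to 0.49, adjusted p = 0.969), and the difference was 0.15 without bleomycin CAV1 TSB array 1. Mmp2 (-0.32, adjusted p = 0.890), Mmp14 (-0.37, 0.890), Mmp8 (-0.26, 0.739), Mmp9 (0.32, 0.646), Timp3 (-0.02, 0.991) and Timp4 (-0.09, 0.881) did not pass either. Of 11 monocyte-derived macrophage markers 0 were called higher and 1 lower in this comparison, with a list mean of 11.99 to 12.29 with the Control TSB and 10.40 to 11.98 with the CAV1 TSB. At an unadjusted p under 0.05 were 7 of the 11, against 9.08% of all genes, and the median difference was -0.52. Of 8 resident alveolar macrophage markers 0 were called and 1 had such a p, with a median of 0.23. Fibroblast markers (9 genes, 0 called) had a mean of 12.88 to 12.98 and of 12.64 to 12.96. After bleomycin the median blocker difference was -0.04 over the 50 members, and -0.01 over all genes.

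After PBS, the blockers were compared on 2 arrays each, which shows what the CAV1 TSB did without injury. No member was called by limma, where 0.276% of all genes rose and 0.0345% fell, and with no adjustment of p 1 member was higher and 2 lower (8.26% and 4.55% of all genes). Arrays of the 2 groups did not overlap for 9 members higher and 7 lower, where 23.7% and 14.7% of all genes were so placed. Timp4 was at 7.73 and 7.91 with the Control TSB and at 7.29 and 7.64 with the CAV1 TSB (-0.35, adjusted p = 0.366). Mmp3 differed by 0.56 (0.386), Mmp2 by -1.09 (0.390), Adamts8, a proteoglycan-cleaving enzyme high in lung, by 0.40 (0.406) and Timp3 by 0.35 (0.413). Mmp12 (-0.26), Mmp14 (-0.60), Mmp8 (0.16), Mmp9 (-0.05), Timp1 (0.12), Timp2 (0.07) and Adamts4 (0.51) had adjusted p-values of 0.590 to 0.944. The 9 other spots of Mmp9 gave 0.05 to 0.35 and the second spot of Timp2 gave -0.15, on the other side of 0 from the spots used. Without PBS Control TSB array 1 there were 6 calls, 12% of the members, where 19.8% of all genes were called, so the members' share was below that of all genes. The 6 included Mmp2 (-1.80, adjusted p = 0.0362) and Timp3 (0.61, 0.0389). PBS Control TSB array 2, the array then left alone, had an Mmp2 signal of 12.18, above the 10.75 of array 1. Skeletal muscle and squamous markers were high in both PBS Control TSB arrays and low in both PBS CAV1 TSB arrays, so this group difference and that of the blockers cannot be told apart.

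The interaction tests whether the bleomycin effect itself differed between the blockers. It called 0 members and 0 of all genes (0% in either direction) by limma. At an unadjusted p under 0.05, 0 members were higher and 6 lower, against 3.22% and 6.01% of all genes. The 6 were Mmp10 (-0.68, adjusted p = 0.497), Adamts4 (-1.54, interval -2.72 to -0.36, 0.497), Mmp3 (-0.71), Adamts2 (-0.59), Adamts14 (-0.40) and Mmp27 (-0.38), each at an adjusted p of 0.497. The second and dimmer spots gave 0.45 for Adamts2, 0.13 for Mmp27 and -0.64 for Adamts4, and that of Adamts14 is given below. Timp1 (-0.87, interval -1.99 to 0.25, adjusted p = 0.498) and Mmp12 (0.12, interval -1.13 to 1.37, 0.924) had wide intervals. Timp2 (-0.26), Timp3 (-0.37), Timp4 (0.26), Mmp2 (0.77), Mmp8 (-0.42), Mmp9 (0.37) and Mmp14 (0.23) had adjusted p-values of 0.497 to 0.871. Other spots gave -0.10 to 0.25 for Mmp9 and 0.09 for Timp2. So the smaller rises of Timp1, Adamts4 and Adamts17 under the CAV1 TSB were not shown to differ from those under the Control TSB. Without PBS Control TSB array 1, 5 members passed, or 10% of them, where 14.8% of all genes passed. Among the 5 were Adamts14 (-0.56, adjusted p = 0.0485), whose second and dimmer spot gave 0.17 in the fit of all arrays, and Mmp27 (-0.58, 0.0425). Skeletal muscle and squamous markers moved with the interaction too, with 11 and 9 of 12 genes at an unadjusted p under 0.05, 0 called and medians of 4.57 and 3.32, and their part in it was not tested.

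Other genes of the extracellular protease network were followed in a list of 68, of which 66 were tested. The list was drawn up with earlier results of these data known, so its counts are no test against the shares of all genes. Under the Control TSB 13 rose with bleomycin and 0 fell, where 1.96% and 0.448% of all genes did. These were 4 of 14 cathepsins, lysosomal proteases of macrophages and other cells, led by Ctss (1.36, adjusted p = 0.0187) and Ctsb (0.98, 0.0153). They were also 5 of 18 substrates and matrix proteins, Thbs1 (1.43), Fn1 (1.38), Col1a1 (1.20), Vcan (0.91), which Adamts4 cleaves, and Col1a2 (0.90). The ADAM genes Adam8 (0.92) and Adam23 (0.43), the procollagen C-proteinase Bmp1 (0.85) and Spock2 (1.14), a secreted proteoglycan, completed them. Of 8 tested genes of the plasminogen system 0 were called by limma and 0 had an unadjusted p under 0.05. Under the CAV1 TSB, where 0.345% of all genes rose, 3 rose, Spock2 (1.11, adjusted p = 0.0379), Ctsh (0.67, 0.0463) and the cystatin Cstb (0.63, 0.0432). In the mean of both, where 4.25% of all genes rose and 1.68% fell, 18 rose, and Pcolce2, which enhances procollagen C-proteinases, fell by 0.54 (adjusted p = 0.00741). Between the blockers 0 were called after bleomycin, 0 after PBS and 0 in the interaction, where 13 (19.7% of the 66), 8 (12.1%) and 6 (9.09%) had an unadjusted p under 0.05. The shares of all genes at that p were 9.08%, 12.8% and 9.22%, so the list lay near the background after PBS and in the interaction.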

How the data were processed

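The deposited values are log2 intensities of one-colour Agilent arrays, made by the authors with limma per the submitters' processing notes, with no version given. Background correction, scanner and slide are not given in the sources used here, and precision is limited by how few arrays there are. Of 62976 spots 31465 had 1 gene symbol and 31511 none in the platform annotation. Accessions matched 29050 to RefSeq (GRCm38.p6, for names and promoter windows only).

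Genes above the array's 25th percentile in at least 2 arrays were fitted with limma 3.58.1 on R 4.3.3 (lmFit, eBayes), with 1 mean per group, 16 arrays and 12 residual degrees of freedom. The contrasts were bleomycin against PBS under each blocker and their mean, CAV1 TSB against Control TSB after each of bleomycin and PBS, and their interaction. The fit was checked on simulated data. Named were Timp1 to Timp4, Mmp2, Mmp8, Mmp9, Mmp12, Mmp14 and Adamts4 in every comparison, each called member, and the 5 smallest p-values where fewer than 5 were called. Of the network list, called genes were named, at most 4 per subgroup by smallest p, and Vcan was added after its values were seen. The members and all lists were chosen with earlier results of these data known. Alternatives covered the filter, spots, scaling, moderation, weights, arrays, a replicate block and marker covariates. Those on muscle-high arrays, on 2 arrays together and on integrity number were chosen after seeing the data.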

Additional observations from a re-analysis of the deposited data

Results flagged for a closer look

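Among the 100 groups of 6 values looked at, 9 had an array far from the other 5 by Dixon's criterion at 95%, and chance alone would flag about 1 in 20 groups, or 5. The 2 on array 1 of bleomycin with CAV1 TSB were Mmp12 at 6.69, with the other 5 arrays at 8.25 to 8.73, and Mmp9 at 8.23, with the others at 7.11 to 7.39. Array 6 of that group was far from the rest for Mmp15 (11.13, others 10.18 to 10.43) and Adamtsl1 (7.80, others 8.17 to 8.35), array 2 for Adamts3 (7.34, others 5.94 to 6.06) and array 5 for Adamts20 (6.75, others 5.54 to 5.99). In bleomycin with Control TSB, array 5 was far from the rest for Adamts16 (6.47, others 6.03 to 6.15) and Mmp1a (6.10, others 5.81 to 5.91), and array 2 for Mmp1b (6.34, others 5.70 to 5.93).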

How the results depend on the processing

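The comparisons rest on 2 PBS arrays per blocker, and calls near the array median rest on dim spots. None of the 19 named differences that passed the test changed sign under any alternative, and of the 89 named differences in all 18 changed sign, each with an adjusted p of at least 0.53. The number of members called with bleomycin was 7 under the Control TSB, 0 under the CAV1 TSB and 11 in the mean of both. With array weights these were 0, 9 and 3, where 0%, 13.4% and 1.81% of all genes were called. Without PBS Control TSB array 2 and bleomycin CAV1 TSB array 6 together they were 0, 1 and 7 (0.517%, 1.07% and 7.04% of all genes), and without the libraries of integrity number 10 they were 0, 0 and 5 (0.0739%, 0.118% and 3.75%). Under the Control TSB 4 were called with a skeletal muscle covariate (1.17% of all genes) and 0 in the muscle-high arrays alone (0.0443%). Under the CAV1 TSB 1 was called with the dim filter at the 50th percentile (1.07% of all genes), which left 34 members tested. Leaving out each array in turn gave 0 to 12, 0 to 6 and 3 to 12, and the blocker comparison 1 call after bleomycin each time, 0 to 6 after PBS and 0 to 5 in the interaction, with the shares of all genes given beside the results. The cause of these moves was not tested. With the replicate number as a block, 0 were called under the Control TSB (0.00493% of all genes) and 0 in the mean (0.0443%). With so few calls over all genes, these counts say little about the members. The call of Mmp10 between the blockers kept its side of the threshold in that fit, where 1.04% of all genes were called. Over 16 pairs of arrays with the same number, the correlations of deviations from group means were -0.69 to 0.44, with a median of 0.04. Over 72 pairs with other numbers they were -0.69 to 0.81, with a median of -0.01. In a group of 2 arrays the deviations mirror each other, so these values cannot decide whether the numbers pair the samples. A fit of only the compared groups was not applicable to the mean of both effects or to the interaction, and the muscle-high arrays alone could not give the contrasts with the PBS CAV1 TSB group.

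Among the differences that changed sign, with bleomycin under the Control TSB, leaving out each array gave -0.080 to 0.34 for Timp2, -0.22 to 0.30 for Timp3 and -0.02 to 1.28 for Mmp14. Without PBS Control TSB array 2 and bleomycin CAV1 TSB array 6 together Timp2 was -0.080 and Timp3 -0.22, and Timp3 was -0.017 with a skeletal muscle covariate, -0.025 with a squamous covariate and -0.054 in the muscle-high arrays. Under the CAV1 TSB, Timp2 was 0.090 with the mean of its spots, and Timp4 was -0.14 to 0.21 over the left-out arrays. In the mean of both, Timp2 was -0.032 after median centring, -0.021 with the replicate block, -0.093 without the 2 arrays together and -0.10 to 0.11 over the left-out arrays.

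Between the blockers after bleomycin, Timp3 was 0.0085 with array weights, 0.017 with the squamous covariate, 0.048 in the muscle-high arrays, 0.026 without the 2 arrays together and -0.068 to 0.046 over the left-out arrays, and Mmp12 was -0.26 to 0.15 over them. After PBS the left-out arrays gave -0.16 to 0.41 for Timp1, -0.14 to 0.28 for Timp2, -0.19 to 0.51 for Mmp8, -0.29 to 0.19 for Mmp9 and -1.26 to 0.051 for Mmp14. Without the 2 arrays together these were -0.0074 for Timp1, -0.14 for Timp2, -0.19 for Mmp8, 0.19 for Mmp9 and 0.051 for Mmp14. With the mean of a gene's spots Timp2 was -0.042 and Mmp9 0.18, with the squamous covariate they were -0.051 and 0.28, and with the skeletal muscle covariate Mmp9 was 0.29.

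In the interaction, leaving out the 2 arrays together gave -0.13 for Mmp2, 0.052 for Mmp8, -0.039 for Mmp12 and -0.68 for Mmp14. Mmp9 was -0.015 with the skeletal muscle covariate and -0.023 with the squamous covariate, Mmp14 was -0.21 with the latter, and Mmp12 was -0.028 with the mean of its spots. The left-out arrays gave -0.0006 to 0.41 for Mmp12 and -0.42 to 0.89 for Mmp14.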
